A study of Mus musculus with 6 samples.

Results

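Kinesins are motor proteins that use ATP to walk along or take apart microtubules. Some kinesins, from several classes of the family, work in cell division. They push spindle poles apart, move chromosomes and build the midzone that the dividing cell cuts through. Genes of these mitotic kinesins are typically switched on late in the cell cycle. Many other kinesins carry vesicles, organelles and ciliary components, also in cells that are not dividing. Biliary epithelial cells, the ciliated cells that line the bile ducts, use such carriers throughout.

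The kinesin family was taken here as every gene whose symbol starts with Kif and a digit and whose mean normalised count over the 6 libraries was at least 10. Of 40 such symbols among 24404 genes, 36 reached this mean. They were divided into 11 mitotic kinesins (Kif2c, Kif4, Kif11, Kif14, Kif15, Kif18a, Kif18b, Kif20a, Kif20b, Kif22 and Kif23) and 25 others. One of the 25, Kif1bp, is named for its binding to kinesins and has no motor. Kif5a, with a mean of 14.3, lay just inside the limit, and Kif17, with 8.05, just outside. Kif16bos, an antisense RNA, had a mean of 1.72, and Kif2b and the pseudogene Kif4-ps had 0 reads in every library. The mitotic kinesin Kifc1 was listed but had a mean of 6.69, so it was not tested.

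RNA came from biliary epithelial cells of the intrahepatic bile ducts of adult C57BL/6 mice, all after 1 week of injury with DDC, a compound that damages bile ducts. The 3 Klf5 LKO libraries are labelled Alfp-CreTg/+;Klf5flox/flox, and the 3 control libraries Alfp-Cre+/+;Klf5flox/flox, read here as floxed Klf5 without the Cre transgene. Alfp-Cre, driven by albumin and alpha-fetoprotein regulatory sequences, is active in the hepatocytes as well as the bile ducts, and since no control carried Cre, its own effect cannot be told apart from the loss of Klf5. Separate animals behind the 3 libraries of each group are not recorded in the labels. The p-values therefore describe how far these libraries spread, and that spread may be technical. Total reads assigned to genes ranged from 11726934 (control 2) to 24784167 (Klf5 LKO 2). Klf5 itself had 2130 ± 162 normalised counts in control and 1117 ± 122 in Klf5 LKO (SD, n = 3 each, limma adjusted p = 0.0103). That call ended without control 1, 2 or 3 (adjusted p = 0.0625, 0.0681 and 0.0540), while every Klf5 LKO library stayed below every control. Counts over the whole gene may include exons outside the deleted part, and the source of the remaining Klf5 reads was not tested. All 8 biliary epithelial markers had reads, and their summed level was 456840 to 575465 in control and 399214 to 454697 in Klf5 LKO. Of the markers of other cells, 5 of the 6 erythroid genes used (all but Alas2) and 4 of the 8 stellate and fibroblast genes (Col1a2, Col3a1, Lrat and Des) were at 0 in every library, and 8 endothelial genes summed to at most 470. The 10 hepatocyte markers, led by Alb, summed to between 9902 and 14767 in every library. Leukocyte transcripts differed between libraries, and their values are given below beside the kinesins.

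Most mitotic kinesin promoters held a CHR, a short sequence of late cell cycle genes. The stretches below, from RefSeq on GRCm38.p6, run from 70 bases before the annotated start to 25 bases from it, 5′ to 3′ on the strand of the gene. The 5 mitotic kinesins shown are those with both elements marked in capitals inside the stretch, and their degrees of change in Klf5 LKO differed. Kif12, a kinesin of the bile duct, is shown beside them and holds neither. It does not stand for all other kinesins, since Kif26b and Kif27 held both elements in the longer window described below. Not shown are Kif2c, Kif15, Kif18a and Kif20b, which had no CCAAT in the longer window described below. Kif18a also had no CHR there, and both elements of Kif14 lay outside the stretch. Capitals mark TTTGAA, the cell cycle genes homology region or CHR, an element bound by the complex that times late cell cycle genes, and CCAAT, the box bound by NF-Y, each on either strand.
Kif23 (chr9:61946775-61946869, minus): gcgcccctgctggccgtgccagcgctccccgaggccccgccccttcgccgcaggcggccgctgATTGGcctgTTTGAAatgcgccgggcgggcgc
Kif4 (chrX:100625995-100626089, plus): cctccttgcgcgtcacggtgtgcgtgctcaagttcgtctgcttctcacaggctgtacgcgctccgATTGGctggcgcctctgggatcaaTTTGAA
Kif18b (chr11:102925100-102925194, minus): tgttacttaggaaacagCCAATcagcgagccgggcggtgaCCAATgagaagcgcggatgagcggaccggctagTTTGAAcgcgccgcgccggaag
Kif11 (chr19:37376312-37376406, plus): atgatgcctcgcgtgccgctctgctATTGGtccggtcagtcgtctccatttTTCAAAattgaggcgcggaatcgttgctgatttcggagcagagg
Kif22 (chr7:127042396-127042490, minus): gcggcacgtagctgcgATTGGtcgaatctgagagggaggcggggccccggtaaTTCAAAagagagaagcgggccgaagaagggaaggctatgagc
Kif12 (chr4:63172107-63172201, minus): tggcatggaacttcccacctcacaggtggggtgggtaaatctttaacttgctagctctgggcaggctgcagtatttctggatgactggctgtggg

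RefSeq promoters of 300 bases, 250 before the start and 50 from it, were at hand for 10 of the 11 mitotic kinesins and for 19 of the 25 others, with 23 starts. A CHR was present in 9 of the 10 mitotic promoters (90%), in 3 of the 23 other kinesin promoters and in 17.9% of all 32851 promoters. Kif18a was the mitotic kinesin without one, and Kif20a had no entry. Within 30 bases of the start, a window chosen after the matches were seen, 7 of the 10 had a CHR. So did 1 of the 23 other kinesin promoters (Kif26b) and 2.90% of all promoters. The CHRs of Kif2c and Kif14 lay farther off. CCAAT occurred in 6 of the 10, 8 of the 23 and 37.4% of all promoters. Promoters with both elements were 6 of the 10 mitotic, 2 of the 23 other and 6.95% of all. CCGCCC, a GC box, occurred in 6 of the 10, 16 of the 23 and 35.7% of all. The letters CCCACCC were not found in any of the 10 mitotic windows. They were in 2 of the 23, including Kif12, and in 17.5% of all. All of these were counted on both strands, and none of the 4 motifs contains another. A match describes the letters and is not a measured binding site. Binding of Klf5 to the GC box or to any other of these motifs was not tested.

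The mitotic kinesins had lower means in Klf5 LKO and the others did not move in 1 direction. All 11 mitotic kinesins had a log2 fold change below 0, with a median of -1.04 and a range from -1.70 to -0.15, where 50.8% of all 13490 tested genes were below 0 and their median was -0.01. The median ratio of the control mean to the Klf5 LKO mean was 1.81. Only Kif23 passed the test over all genes (limma, adjusted p under 0.05), so 1 fell, 0 rose and 10 did not pass. That is 9.09% of the mitotic kinesins, where 0.489% of all tested genes fell and 0.163% rose. At an unadjusted p under 0.05, 5 of the 11 were lower, or 45.5%, against 5.92% of all genes. In 3 of the 11 (27.3%: Kif4, Kif20a and Kif23) every Klf5 LKO library lay below every control library, against 7.88% of all genes. These genes are read in the same libraries and are not separate observations of the groups. RNA from the whole preparation cannot tell fewer dividing cells from less kinesin RNA in each dividing cell.

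**Figure D1:**
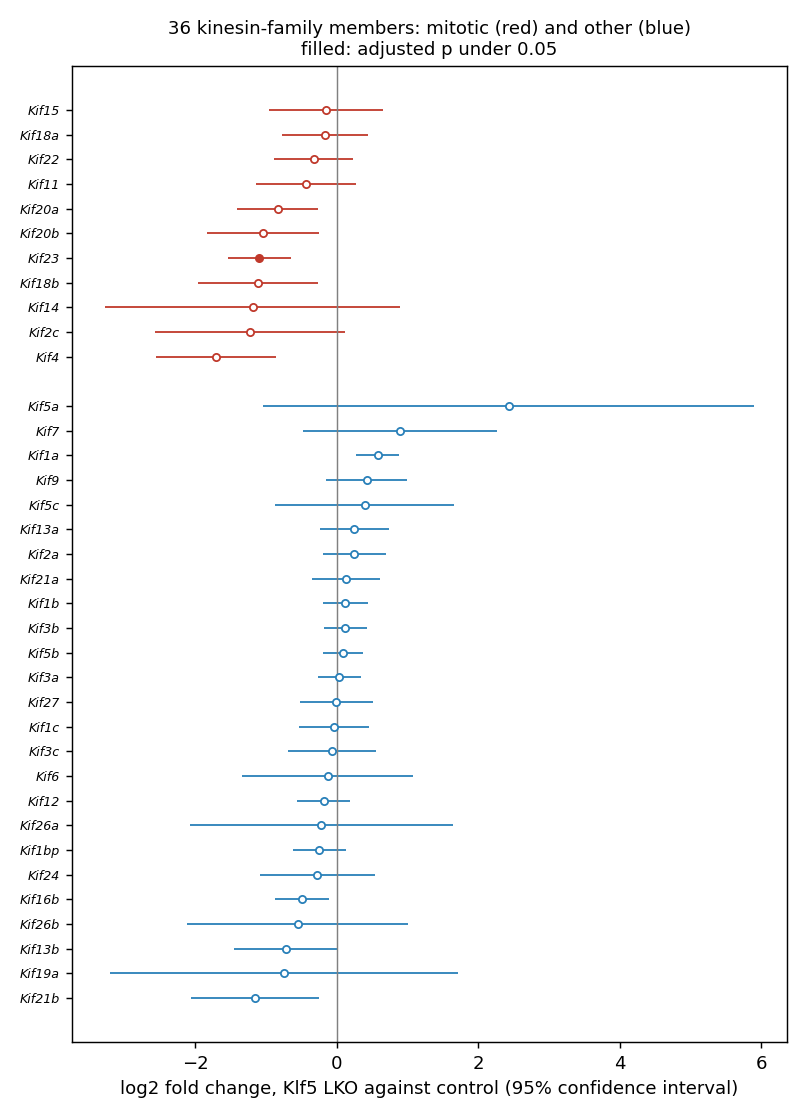
Log2 fold change of Klf5 LKO against control with its 95% confidence interval for each of the 36 members, the 11 mitotic kinesins in red and the 25 others in blue, filled where adjusted p was under 0.05. All red points lie left of 0, from -1.70 to -0.15, and only Kif23 is filled, while the blue points lie on both sides.

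Kif23, Kif20a, Kif4, Kif20b and Kif14 act late in division, at the spindle midzone and in cytokinesis. Kif23 (chromosome 9, 61915905 to 61946774, minus strand, GRCm38) is the motor of centralspindlin, which bundles midzone microtubules and recruits the machinery of the cleavage furrow. It had 564, 838 and 607 normalised counts in control 1 to 3, whereas Klf5 LKO 1 to 3 held 305, 334 and 287. The groups did not overlap, and the spread was narrower in Klf5 LKO (SD 23.4) than in control (SD 147). The log2 fold change was -1.09 (SE 0.20, 95% confidence interval -1.54 to -0.65, limma adjusted p = 0.0322), or 2.17-fold lower. The call held without Klf5 LKO 1 (adjusted p = 0.0489) and ended without any other single library. Adjusted p was then 0.0585 (Klf5 LKO 2 left out), 0.113 (Klf5 LKO 3), 0.0972 (control 1), 0.208 (control 2) and 0.0911 (control 3). The call was lost with no filter on low values (adjusted p = 0.0525), with limma-voom (0.0551) and with a term for leukocyte transcripts (0.0810), where the log2 fold change was -1.11. Leaving out libraries 1 at a time gave log2 fold changes of -1.21 to -0.92.

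Kif4 (chromosome X, 100625737 to 100727214, plus strand) is a chromokinesin that helps to compact chromosomes and sets the length of the midzone. It had the lowest log2 fold change of the 36 members. Control 1 to 3 held 292, 559 and 205 normalised counts and Klf5 LKO 1 to 3 held 128, 112 and 66.0. The groups did not overlap, and control 2 stood well above the other controls. The log2 fold change was -1.70 (SE 0.39, 95% confidence interval -2.55 to -0.86), which did not pass (limma adjusted p = 0.0864) but passed with DESeq2 on the recovered reads (adjusted p = 0.000978). Kif4 shares exon positions with Pdzd11 on the opposite strand, and it is not stated whether counting used strand.

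Kif20a (chromosome 18, 34624613 to 34633277, plus strand) carries the chromosomal passenger complex to the midzone and was, per kilobase of exon, the most abundant mitotic kinesin. It had 670, 975 and 544 in control 1 to 3, whereas Klf5 LKO 1 to 3 held 447, 493 and 282. Every Klf5 LKO library was below every control, by a log2 fold change of -0.84 (SE 0.26) that did not pass (adjusted p = 0.233). Its exons overlap those of Cdc23 on the opposite strand.

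Kif20b, another cytokinesis motor, had 288, 395 and 243 in the controls, and in Klf5 LKO 105, 111 and 269. Klf5 LKO 3 stood within the control range while the other Klf5 LKO libraries were well below it (log2 fold change -1.04, SE 0.36, adjusted p = 0.296). Kif14, which places citron kinase at the furrow, was the scarcest member of the mitotic set, with 59, 19 and 10 reads in the controls, and in Klf5 LKO 8, 53 and 4. Its groups overlapped, and its log2 fold change of -1.19 carried an SE of 0.96.

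**Figure D2:**
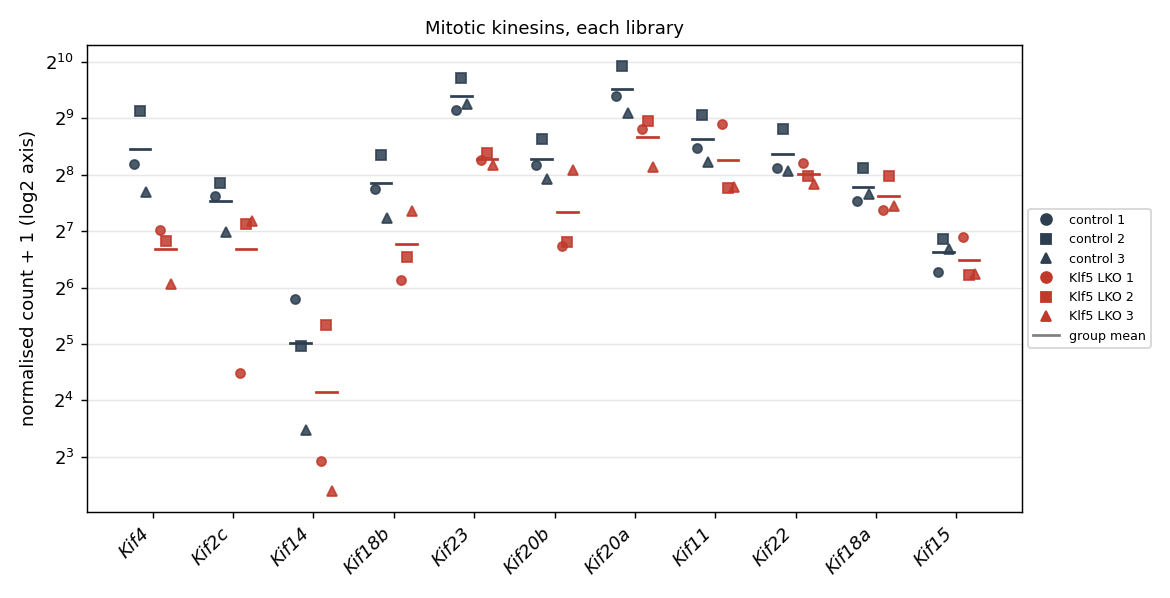
Normalised count plus 1 (log2 axis) of the 11 mitotic kinesins in each of the 6 libraries, control in dark blue and Klf5 LKO in red, the marker shape giving the library number and the bar the group mean. Control 2 is the highest point for 9 of the 11 genes, and the groups are apart for Kif4, Kif20a and Kif23.

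Kif11 and Kif15 build and hold the spindle, and neither passed. Kif11, the tetrameric motor that pushes the poles apart, had 356, 531 and 299 in the controls, and in Klf5 LKO 476, 218 and 220. Klf5 LKO 1 was above control 1 and 3, so the groups overlapped (log2 fold change -0.43, 95% confidence interval -1.14 to 0.27, adjusted p = 0.681), and without Klf5 LKO 1 the log2 fold change was -0.81. Kif15, which keeps the poles apart beside Kif11, had 76.3, 115 and 102 in the controls, and in Klf5 LKO 118, 73.8 and 74.5, with Klf5 LKO 1 the highest of all. Its log2 fold change was -0.15 (95% confidence interval -0.96 to 0.65). In both genes Klf5 LKO 1 stood apart from Klf5 LKO 2 and 3.

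The motors that act on chromosomes and microtubule ends were mixed. Kif2c, which takes microtubules apart at centromeres, had 196, 231 and 125 in the controls, and in Klf5 LKO 21.4, 139 and 144. Its low mean in Klf5 LKO came from library 1, without which the log2 fold change went from -1.22 to -0.33. Kif18b, a motor of astral microtubule ends, had 215, 327 and 149 in the controls, and in Klf5 LKO 69.0, 91.7 and 163, so that Klf5 LKO 3 lay above control 3 (log2 fold change -1.11, SE 0.39, adjusted p = 0.297). Kif18a, which damps the swings of aligned chromosomes, had 184, 277 and 201 in the controls, and in Klf5 LKO 165, 250 and 174. Its log2 fold change was -0.17 (95% confidence interval -0.78 to 0.44), and without control 2 it was 0.0027. Kif22, which pushes chromosome arms towards the midplane, had 279, 447 and 267 in the controls, and in Klf5 LKO 294, 252 and 227 (log2 fold change -0.33, SE 0.26). Exons of Kif18a and Kif22 overlap genes on the opposite strand, Mettl15 and Gm31749. Of these 4 genes none passed, and the confidence intervals of Kif18a and Kif22 reach from a fall of 0.78 and 0.89 to a rise of 0.44 and 0.23 on the log2 scale.

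Kifc1, a minus-end motor that gathers spindle poles, had 1, 16 and 6 reads in control 1 to 3 and 5, 5 and 0 in Klf5 LKO 1 to 3. Its copy Kifc5b had 5, 18 and 3 reads in the controls, and in Klf5 LKO 4, 4 and 4. Control 2 held the most reads of both. In the GENCODE transcripts 53.2% of the 31-base words of Kifc1 also occur in Kifc5b, so reads of this pair may have been dropped or assigned to either, and their level here is uncertain.

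Values of single libraries and of leukocyte transcripts are given here beside the mitotic kinesins. The mean of log2(normalised count + 1) over the 11 mitotic kinesins was 7.86, 8.31 and 7.48 in control 1 to 3 and 6.88, 7.27 and 6.97 in Klf5 LKO 1 to 3, a description without a test. Control 2, the library with the fewest reads, was the highest of the 6 for 9 of the 11 genes, and the lowest library was always one of the Klf5 LKO group. The same mean over the 11 measured leukocyte markers was 8.51, 7.35 and 5.23 in the controls, and in Klf5 LKO 7.04, 4.64 and 5.42. All 11 had log2 fold changes below 0, with a median of -1.39, though none passed. Over all 16 listed leukocyte genes the summed level was 1895 to 5272 in control and 1765 to 2995 in Klf5 LKO. By the mean of log2 values control 3 lay below Klf5 LKO 1 and 3, whereas by the summed level control 3 (1895) lay above Klf5 LKO 3 (1765). With the leukocyte mean as a term in the fit, the median log2 fold change of the 11 mitotic kinesins was -0.96, all 11 were below 0, and none passed. Single members moved both ways. With the term the fall was smaller in Kif11 (-0.10) and Kif4 (-1.44), among others. It was larger in Kif2c (-1.58), Kif18a (-0.28) and Kif23 (-1.11). The part of leukocyte RNA in the difference was not tested beyond this fit.

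**Figure D3:**
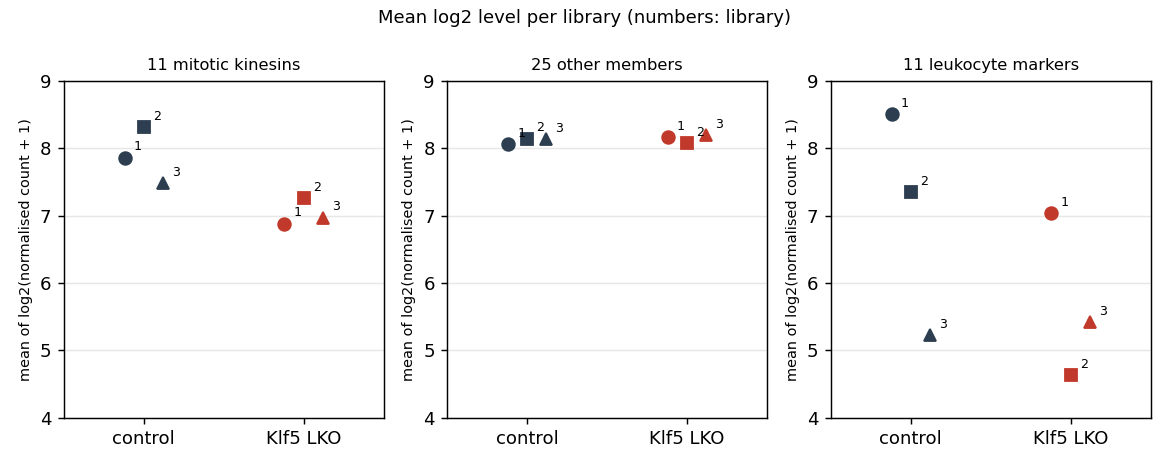
Mean of log2(normalised count + 1) in each library over the 11 mitotic kinesins (left), the 25 other members (middle) and the 11 measured leukocyte markers (right), each point 1 library with its number. The mitotic mean is 7.48 to 8.31 in control and 6.88 to 7.27 in Klf5 LKO, the mean of the others is 8.06 to 8.20 throughout, and the leukocyte mean overlaps between groups.

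The 25 other members showed no common direction. Of these, 13 had a log2 fold change below 0 and their median was -0.01, as was that of all tested genes. None rose or fell in the limma test, where 0.652% of all genes were called, and 2 were lower and 1 higher at an unadjusted p under 0.05. With DESeq2, 1 of the 25 rose (Kif1a), against 0.883% of all genes, and with edgeR 0, against 0.133%. In either direction DESeq2 called 2.48% and edgeR 0.623% of all genes. In 18 of the 25 the fitted change was under 0.5 on the log2 scale in either direction, against 4 of the 11 mitotic kinesins. The mean over the 25 was 8.06, 8.15 and 8.13 in the controls, and in Klf5 LKO 8.16, 8.08 and 8.20. Libraries of 1 group also spread less in these genes. The median coefficient of variation among control libraries was 16.8%, against 30.4% for the mitotic kinesins, and in Klf5 LKO 23.3% against 31.6%. The median level was also higher, 412 normalised counts against 227.

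Per kilobase of exon, the transport and ciliary motors were the most abundant members. Kif5b, the heavy chain of the general cargo motor kinesin-1, had 813 normalised counts per kilobase as a mean over the 6 libraries. Kif12 had 756, Kif3a 466, Kif3b 193 and Kif1a 163, while the highest mitotic kinesin, Kif20a, had 131. The medians were 63.6 for the 25 others and 41.2 for the 11 mitotic kinesins.

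Kif12 (chromosome 4, 63165630 to 63172131, minus strand) is a kinesin of ducts and tubules, and inherited loss of its human counterpart causes cholestatic liver disease. It had 3095, 2454 and 2613 normalised counts in the controls, and in Klf5 LKO 3056, 2266 and 1944. The groups overlapped, and library 1 was the highest of both. The log2 fold change was -0.19 (95% confidence interval -0.56 to 0.18, adjusted p = 0.749), so that a fall of up to 0.56 on the log2 scale is within the interval. Kif5b had 5901, 6134 and 6815 in the controls, and in Klf5 LKO 7553, 5866 and 6682, a log2 fold change of 0.09 (95% confidence interval -0.19 to 0.37).

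Kif3a and Kif3b are the paired motor subunits of kinesin-2, which carries material out along the primary cilium. Kif3a had 1464, 1770 and 1724 in the controls, and in Klf5 LKO 1868, 1620 and 1590, and Kif3b had 989, 1051 and 1081 in the controls, and in Klf5 LKO 1236, 1075 and 1083. Both overlapped between groups, with log2 fold changes of 0.04 (95% confidence interval -0.26 to 0.34) and 0.12 (-0.19 to 0.42). Their non-motor partner Kifap3 had 703 ± 103 in control and 674 ± 132 in Klf5 LKO (SD, n = 3 each). Kif7, a ciliary tip kinesin of hedgehog signalling, had 75.4, 15.8 and 104 in the controls, and in Klf5 LKO 144, 69.3 and 83.0. Its log2 fold change of 0.89 was 0.09 without control 2, where it had 10 reads. Kif19a, which trims microtubules at ciliary tips, had 15, 11 and 13 reads in the controls, and in Klf5 LKO 62, 2 and 5. Its log2 fold change of -0.75 had an SE of 1.13 and became 0.39 with DESeq2 and 0.38 with edgeR, so no direction can be given.

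Kif1a (chromosome 1, 93015464 to 93101951, minus strand), a kinesin-3 best known for carrying synaptic vesicle precursors in neurons, was the only one of the 25 with all Klf5 LKO libraries above all controls, where 7.72% of all genes were so. It had 1256, 1146 and 1242 normalised counts in the controls, and in Klf5 LKO 2003, 1852 and 1605, that is 1215 ± 59.9 and 1820 ± 201 (SD, n = 3 each). The log2 fold change was 0.58 (SE 0.14, 95% confidence interval 0.28 to 0.88). It did not pass in limma (adjusted p = 0.0975) or edgeR (0.107) and passed in DESeq2 (0.00869). In the authors' deposited table Kif1a also had an adjusted p under the threshold (0.00723), as did 0.903% of all genes there in the upward direction. When 1 library was left out the log2 fold change stayed between 0.51 and 0.67.

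Kif21b and Kif16b had all Klf5 LKO libraries below all controls, 2 of the 25 members outside the mitotic set (8%), near the 7.88% of all genes. Kif16b was named after its values were seen. Kif21b, a motor that restrains microtubule growth and is found in neurons and lymphocytes, had 177, 117 and 89.4 in the controls, and in Klf5 LKO 67.4, 64.8 and 37.3 (log2 fold change -1.16, SE 0.41, adjusted p = 0.307). With the leukocyte term its log2 fold change was -0.86. Kif16b, which carries early endosomes, had 1242, 1339 and 1443 in the controls, and in Klf5 LKO 773, 1216 and 917 (log2 fold change -0.49, SE 0.18, adjusted p = 0.305), and the highest Klf5 LKO library lay close to the lowest control. Kif13b, a vesicle motor of the same kinesin-3 class, had 443, 650 and 576 in the controls, and in Klf5 LKO 183, 563 and 359, and its log2 fold change went from -0.72 to -0.29 without Klf5 LKO 1. Kif1bp, which binds kinesins and can block their motors, had 783, 672 and 932 in the controls, and in Klf5 LKO 630, 722 and 646 (log2 fold change -0.25, SE 0.17). Kif5a, the neuronal kinesin-1 chain, had 0, 7 and 0 reads in the controls, and in Klf5 LKO 6, 5 and 62, so its higher mean rested on Klf5 LKO 3.

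**Figure D4:**
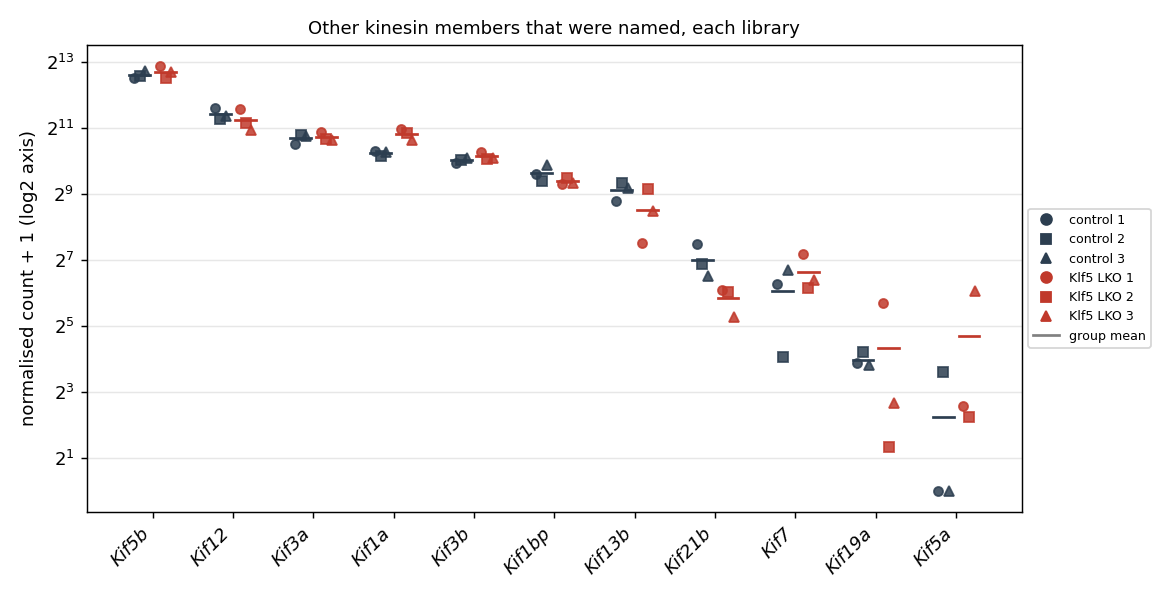
Normalised count plus 1 (log2 axis) of the 11 named members outside the mitotic set in each library, ordered by mean level, control in dark blue and Klf5 LKO in red, the bar giving the group mean. Kif5b, Kif12, Kif3a and Kif3b overlap between groups, Kif1a is higher and Kif21b lower in all 3 Klf5 LKO libraries, and Kif19a and Kif5a rest on few reads.

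In the authors' deposited table, 2 of the 11 mitotic kinesins had an adjusted p under 0.05 and a lower level in Klf5 LKO, against 1.51% of all genes with an adjusted p there (2.41% in either direction). In that deposited table of the authors' own, the log2 fold change of Kif23 was -0.87 (adjusted p = 0.000151), and that of Kif4 was -0.95 (adjusted p = 0.00115). DESeq2 on the recovered reads gave larger falls, -1.11 for Kif23 (adjusted p = 0.000218) and -1.78 for Kif4 (adjusted p = 0.000978). Sizes of change in the deposited table are thus not comparable with those given elsewhere here, and the reason was not tested. With DESeq2 on the recovered reads 2 of the 11 fell, against 1.6% of all genes, and with edgeR 1, against 0.489%.

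Genes for proteins that work with mitotic kinesins also had lower means in Klf5 LKO. All 23 spindle and cytokinesis partners had a log2 fold change below 0, with a median of -0.80. Below 0 were 50.8% of all tested genes. Of the 23, 2 fell (8.70%, against 0.489% of all genes), 0 rose and 21 did not pass. In 15 (65.2%, against 7.88% of all genes) every Klf5 LKO library lay below every control. Incenp, the scaffold of the chromosomal passenger complex that Kif20a carries, fell from 876 ± 74.5 to 435 ± 109, and the mitotic cyclin Ccnb1 was the other that fell. The calls of both ended when single libraries were left out, up to adjusted p = 0.238 and 0.198. Racgap1, which forms centralspindlin with Kif23, had 954 ± 304 in control and 434 ± 78.1 in Klf5 LKO (log2 fold change -1.10, adjusted p = 0.0728). Prc1, the midzone bundler that recruits Kif4, had 1429 ± 174 and 869 ± 151 (SD, n = 3 each; log2 fold change -0.73, adjusted p = 0.0935), and it and Racgap1 were named after their values were seen. Partner genes were listed with earlier results of these data known, so their direction is no independent support.

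No partner of the transport kinesins passed in limma, where 0.652% of all genes did, so counts of 0 in lists of this size are near the background. The difference from the spindle partners was not tested. Among 13 tested light chains and adaptors of kinesins, 0 passed and the median log2 fold change was 0.03. The lowest p was that of Arl8a, a small GTPase of lysosomes, with 1522 ± 154 in control and 1824 ± 196 in Klf5 LKO, followed by Plekhm2, which links it to kinesin-1, with 745 ± 65.5 and 899 ± 34.9. Among 26 genes of dynein and dynactin, the motor complex that runs the opposite way along microtubules, 0 passed and the median was 0.05. The dynein light chain Dynll1 had 2482 ± 353 and 1597 ± 359, lower in every Klf5 LKO library (limma adjusted p = 0.156), and passed with DESeq2 (adjusted p = 0.0254). The adaptor Hook2 had 1455 ± 41.1 and 1866 ± 194. Among 18 genes of intraflagellar transport, the cargo system of kinesin-2 in the cilium, 0 passed and the median was 0.08. Ift43 had 788 ± 105 in control and 1036 ± 165 in Klf5 LKO and Ift140 had 695 ± 49.1 and 511 ± 167 (SD, n = 3 each).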

How the data were processed

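The labels' protocols state 4 ng of total RNA as input, amplified with 10 cycles before and 7 cycles during library PCR, and single-end reads. The tools named, per the submitters' processing notes, are TopHat, Bowtie2 and DESeq2, with mm10 as the build. Which counter and annotation made the values is not given in the sources used here. The deposited signal of a gene in a library is its reads over that library's size factor. Every value (100%) was a whole multiple of 1 read within a tolerance of 0.001, so reads were recovered as whole counts. The authors' deposited table of their comparison gives log2 fold changes with p-values, and a score named stat per the file headers. At these depths a floor of 3 reads is a normalised count of 2.24 to 4.74, for counting error only.

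limma 3.58.1 (eBayes with trend) in R 4.3.3 was fitted to log2(value + 1) of 13490 genes that reached a mean of 10, two-sided, with Benjamini-Hochberg adjustment over all of them and a threshold of 0.05. The fit was tested on simulated data. Alternatives were DESeq2 1.42.0, edgeR 4.0.16 and limma-voom on recovered reads, 2 scalings, other filters and pseudocounts, a leukocyte term, a replicate block and leaving out each library. Members and gene lists were chosen with earlier results of these data known. Named genes are Klf5, every mitotic kinesin, the 6 other members with the largest change, the 6 with the most counts per kilobase, Kif12, and called or lowest-p partners. Positions and exon lengths come from GENCODE M21 (GRCm38), which matched all 36 members; of these 12 share exon positions with a gene on the opposite strand.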

Additional observations from a re-analysis of the deposited data

How the results depend on the processing

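The number of genes called in all was 88, and 335 with DESeq2; leaving out 1 library gave between 14 and 105. The number of mitotic kinesins that fell was 1, became 2 with DESeq2 and 0 with no filter, with limma-voom and with the leukocyte term, and was between 0 and 1 when 1 library was left out. The cause was not tested. Among other members 0 rose, against 1 with DESeq2. The median log2 fold change of the mitotic kinesins stayed between -1.15 and -0.61 and that of the others between -0.03 and 0.09 when 1 library was left out; the 2 other scalings, the filters and the pseudocounts gave -1.05 to -0.91 for the mitotic kinesins, and DESeq2 and edgeR -0.86. Direction changed for Kif19a with DESeq2 (0.39), edgeR (0.38) and the leukocyte term (0.14). When 1 library was left out it ranged from -1.98 to 0.21 for Kif19a, from -0.36 to 0.0027 for Kif18a, from -0.0025 to 0.18 for Kif5b and from -0.0493 to 0.0876 for Kif3a. Of 387 alternative values over 23 named genes, 365 kept direction and side of the threshold. Only Klf5 and Kif23 were called in the main fit, so for the other genes keeping the side says little. The values that lost a call were 11, all of Klf5 or Kif23, while 3 gained a call and 8 reversed direction. Libraries of the same number did not deviate together in every case (correlations 0.185, -0.0116 and 0.106), so the numbers were not taken as pairs; the replicate block called 2 mitotic kinesins, Kif4 being added (adjusted p = 0.0351). Depth limits Kif14, Kif5a, Kif19a and Kifc1, whose libraries held as few as 0 to 10 reads.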

Other observations

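Of the kinesin genes that do not carry a Kif number, 3 were tested and 0 passed in limma. Of all genes 0.652% passed, so a count of 0 in so few genes is near the background. Kifc2 had a log2 fold change of 0.59, with overlapping groups (adjusted p = 0.631). Kifc3, a minus-end kinesin known from epithelial cell junctions, had 1940 normalised counts per kilobase of exon, above each of the 36 members. It had 7902, 8870 and 9360 normalised counts in control 1 to 3 and 11513, 12264 and 11759 in Klf5 LKO 1 to 3. The groups did not overlap, as for 7.72% of all genes in the upward direction. The log2 fold change was 0.45 (SE 0.12, limma adjusted p = 0.135, DESeq2 adjusted p = 0.00635). DESeq2 called 0.883% of all genes higher. Cenpe, the kinesin that carries chromosomes to the spindle midplane, had 276, 270 and 282 in the controls, and in Klf5 LKO 282, 118 and 131. Klf5 LKO 1 thus stood at the control level while libraries 2 and 3 lay below it (log2 fold change -0.75, SE 0.33, adjusted p = 0.430). In Kif11 and Kif15 Klf5 LKO 1 was likewise the highest Klf5 LKO library, and in Kif2c and Kif20b it was the lowest.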
